A study of Mus musculus with 24 samples.

Results

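Small nucleolar RNA host genes were followed in mouse prostate tumour cells after 6 days of drug treatment. The 9 genes are Gas5, Zfas1, Snhg1, Snhg5, Snhg6, Snhg8, Snhg12, Snhg15 and Snhg18, taken by name from the 55487 genes of the count table. All 9 passed the filter on low counts, among 15527 genes tested. No threshold on a measured value was used to take them.

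Small nucleolar RNAs (snoRNAs) guide chemical changes to ribosomal RNA. Those of the box C/D class direct methylation of ribose, and those of the box H/ACA class direct the conversion of uridine to pseudouridine. In mammals most of them are cut from the introns of a host gene, and the spliced exons of many noncoding hosts are then a by-product that ribosomes can engage and that nonsense-mediated decay removes. Several hosts start with a terminal oligopyrimidine tract, the run of C and T bases by which mTOR signalling controls messenger RNAs for ribosomal proteins. Gas5 takes its name from growth arrest, in which its RNA accumulates.

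Myc-CaP is a mouse prostate tumour line with the genotype label MYC overexpressing, which the controls share. Total RNA was sequenced from 8 groups of 3 libraries, 24 in all, and all carry the label batch 1. Controls received DMSO, the solvent. Palbociclib, which blocks the cell-cycle kinases CDK4 and CDK6, was given at 1 µM, and PF-06873600, which blocks CDK2 as well as these kinases, at 500 nM. Alisertib (500 nM) inhibits the mitotic kinase Aurora A. Docetaxel (3.75 µM) holds microtubules in place, and etoposide (500 nM) leaves topoisomerase II bound to broken DNA. Nutlin (500 nM) keeps MDM2 from binding p53. The group T/P was read as 25 nM trametinib, an inhibitor of MEK1 and MEK2, with 1 µM palbociclib. Medium and drug were renewed every 3 days. A single cell line was used, and nothing in the labels tells whether replicate libraries came from separate cultures.

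Total counts were 21260781 to 28318784 in 23 libraries and 69757257 in docetaxel library 1. Luminal epithelial markers summed to between 1851 and 3122 CPM (counts scaled to library size with TMM factors) over the 24 libraries, basal markers to at most 2.41 CPM and leukocyte markers to at most 1.26 CPM. Fibroblast markers summed to 13.5 to 22.0 CPM in DMSO and reached 29.3 CPM with alisertib. The nuclear-retained RNAs Neat1, Malat1 and Kcnq1ot1 summed to 365 to 678 CPM in DMSO, 775 to 1595 with alisertib, 592 to 1803 with docetaxel, 478 to 1425 with etoposide, 536 to 1972 with Nutlin and 1152 to 1561 with palbociclib. The part of these RNAs in the host genes' changes was not tested. In bulk RNA, fewer cells of a type and less RNA per cell cannot be told apart.

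The libraries numbered 2 stood apart for some of the host genes. Snhg1 and Snhg5 were lower in library 2 than in both other libraries of the group in 7 of 8 groups, Gas5 and Snhg6 in 6, and Snhg15 in 5. The median log2 difference of library 2 from the mean of libraries 1 and 3 was −0.32 for Snhg1, −0.28 for Snhg15, −0.27 for Gas5, −0.25 for Snhg6 and −0.20 for Snhg5, beside 0.02 over all tested genes. For Zfas1, Snhg8, Snhg12 and Snhg18 it was 0.05, 0.05, 0.04 and 0.15. Over all tested genes its 5th and 95th percentiles were −0.76 and 0.23, a range that holds the median of every host gene. Neat1 showed the same order in DMSO, at 42.7 CPM in library 2 and 154 and 172 CPM in libraries 1 and 3. Results that rest on the libraries numbered 2 are therefore given with and without them.

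**Figure D1:**
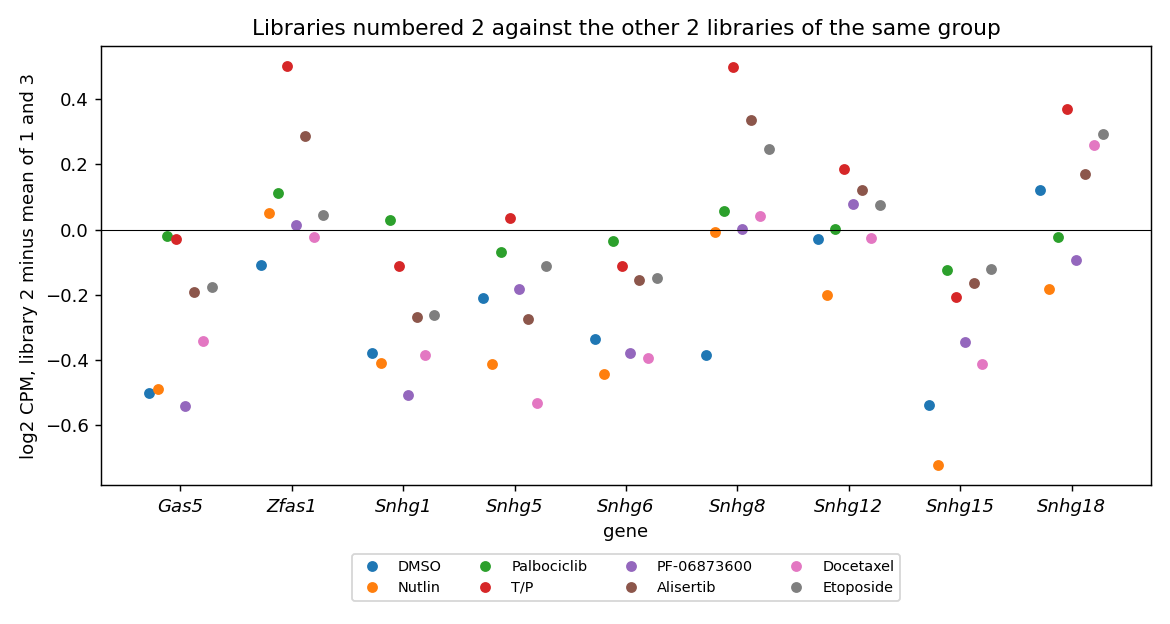
Log2 CPM of library 2 minus the mean of libraries 1 and 3 of the same group, for each host gene (x axis) and each of the 8 groups (coloured points). Gas5, Snhg6 and Snhg15 lie below 0 in all 8 groups, while Zfas1 and Snhg8 reach 0.50 in T/P.

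The genes lie on 8 chromosomes of the build GRCm38 in the GENCODE vM21 annotation. Gas5 spans chr1:161034422-161038539 on the plus strand and Snhg6 chr1:9941959-9944118 on the minus strand. Zfas1 spans chr2:167062934-167065862 on the plus strand, and its start lies 81 bp from that of Znfx1, which is read from the opposite strand. Snhg8 spans chr3:123507552-123508404 (minus), Snhg12 chr4:132308623-132311024 (plus), Snhg5 chr9:88521050-88522929 (minus) and Snhg15 chr11:6525591-6528760 (minus). Snhg18 spans chr15:32240565-32244662 (minus) and Snhg1 chr19:8723475-8726443 (plus). Their bodies hold 32 annotated snoRNA genes, with 10 in Gas5, 8 in Snhg1, 5 in Snhg12, 3 in Zfas1, 2 in Snhg5 and 1 each in Snhg6, Snhg8, Snhg15 and Snhg18.

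The snoRNA carried by a host shows which class the gene serves, and 4 are shown here, 3 from hosts whose calls against DMSO include some kept under every alternative and 1 from Snhg8 for the box H/ACA class. Snord12 of Zfas1 (chr2:167065276-167065365, plus strand), Snord50a of Snhg5 (chr9:88521529-88521600, minus strand) and Snord123 of Snhg18 (chr15:32241853-32241923, minus strand) are box C/D snoRNAs. Their capitals mark box C (TGATGA) near the start and box D (CTGA) near the end. Snora24 of Snhg8 (chr3:123507937-123508066, minus strand) is a box H/ACA snoRNA, and its capitals mark the ACA box near the end. All are on GRCm38, 5′ to 3′.
Snord12: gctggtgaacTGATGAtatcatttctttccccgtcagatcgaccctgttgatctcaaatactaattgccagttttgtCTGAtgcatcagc
Snord50a: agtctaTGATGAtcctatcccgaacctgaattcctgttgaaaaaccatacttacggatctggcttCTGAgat
Snord123: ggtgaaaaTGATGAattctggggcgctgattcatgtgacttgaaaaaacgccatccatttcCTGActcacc
Snora24: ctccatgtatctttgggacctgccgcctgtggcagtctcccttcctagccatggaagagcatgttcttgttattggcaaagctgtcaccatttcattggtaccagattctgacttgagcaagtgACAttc

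The start of the host gene shows whether a pyrimidine run is present at the annotated start. RefSeq promoter windows on GRCm38.p6 matched 8 of the 9 genes, and Snhg6 is named only. Each sequence below is 60 bases centred on an annotated start, 5′ to 3′ on the gene's strand, and capitals mark a run of at least 5 C or T bases that covers the start. The windows are chr1:161035136-161035195 for Gas5 (the downstream of its 2 annotated starts), chr3:123508307-123508366 for Snhg8, chr4:132308648-132308707 for Snhg12, chr15:32244633-32244692 for Snhg18, chr2:167062904-167062963 for Zfas1 and chr9:88522868-88522927 for Snhg5.
Gas5: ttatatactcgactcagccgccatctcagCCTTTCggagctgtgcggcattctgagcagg
Snhg8: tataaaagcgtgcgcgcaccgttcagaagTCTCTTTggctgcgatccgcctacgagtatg
Snhg12: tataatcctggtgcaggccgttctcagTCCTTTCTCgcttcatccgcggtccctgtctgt
Snhg18: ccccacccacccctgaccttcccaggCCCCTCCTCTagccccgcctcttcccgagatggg
Zfas1: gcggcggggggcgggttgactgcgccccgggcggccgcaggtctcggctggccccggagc
Snhg5: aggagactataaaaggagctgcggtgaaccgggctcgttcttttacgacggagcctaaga

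Gas5, Snhg8, Snhg12 and Snhg18 have such a run at an annotated start, 4 of 8 genes or 50%, beside 11.8% of 27025 genes with a RefSeq window and 36.2% of the ribosomal protein genes with one. No such run covers the annotated start of Zfas1, Snhg5, Snhg15 or Snhg1 in these windows. The E-box CACGTG, a motif that MYC can bind, was searched on both strands of the 300-base windows and found in 1 of the 8 genes (Snhg15), beside 8.09% of all genes with a window. These matches are descriptions of the letters alone.

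Of the 9 genes, Zfas1, Gas5 and Snhg18 held the called falls in more than 1 treatment, and Snhg5 and Snhg12 the called rises in more than 1. Calls were made at an adjusted p under 0.05 in edgeR's quasi-likelihood test, with Benjamini-Hochberg adjustment over all 15527 genes. The 7 comparisons with DMSO share the same 3 control libraries, so their results are not independent of each other. With alisertib 5 of the 9 fell and 1 rose, where 26.1% of all tested genes fell and 27.8% rose, 53.9% called in all. Scaled by library totals alone, 2 fell (Zfas1 and Snhg18) and 2 rose (Snhg5 and Snhg12) with alisertib, and the same 2 fell and the same 2 rose with docetaxel. In that scaling 71.8% and 78.4% of all genes called were rises with alisertib and docetaxel, against 51.5% and 54.2% with TMM factors. The share of all tested genes called under library totals is not given, so the host gene counts there are not read as a result. With etoposide 3 rose and 2 fell, where 27.7% of all genes rose and 26.9% fell, 54.6% in all. With docetaxel 3 of the 9 fell, where 22.5% of all genes fell and 49.0% were called, and with PF-06873600 2 fell, where 14.1% fell and 32.0% were called. With Nutlin 3 of the 9 rose, where 8.02% of all genes rose and 19.4% were called, and with palbociclib 1 rose, where 18.5% rose and 35.9% were called. With T/P edgeR called 0 of the 9, DESeq2 and limma also 0, and 1 had an unadjusted p under 0.05, with 29.7% of all genes called. With 9 genes these counts are read against those shares and are not a result about the family as a whole.

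**Figure D2:**
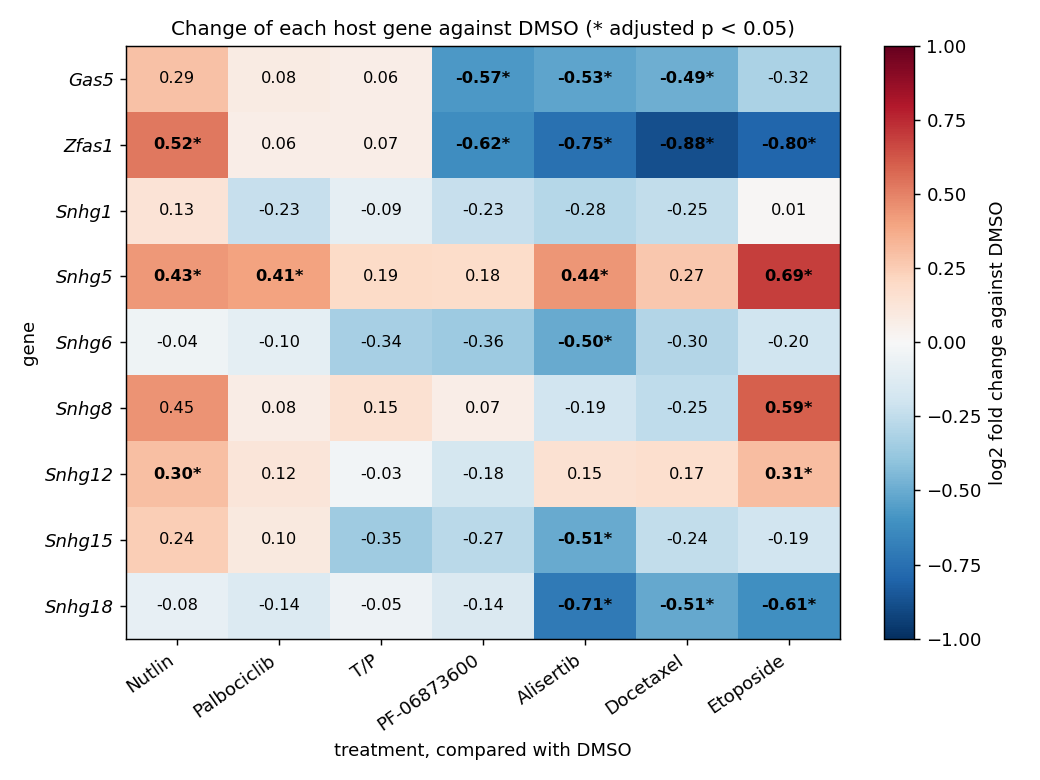
Log2 fold change of each host gene (rows) against DMSO for the 7 treatments (columns), with the colour scale in log2 units and an asterisk at an adjusted p under 0.05 in edgeR's quasi-likelihood test. Zfas1 runs from −0.88 with docetaxel to 0.52 with Nutlin, and Snhg5 is above 0 in all 7 columns.

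The median log2 fold change of the 9 genes was −0.50 with alisertib, −0.25 with docetaxel, −0.23 with PF-06873600, −0.19 with etoposide, −0.03 with T/P, 0.08 with palbociclib and 0.29 with Nutlin. Scaled by library totals alone the etoposide and T/P medians turned to 0.02 and 0.0098, and those of docetaxel, alisertib, PF-06873600 and palbociclib moved to −0.045, −0.31, −0.14 and 0.17. The median over all tested genes lay between 0.00 and 0.04 in the same comparisons. The summed TPM (counts divided by transcript length, then scaled to the library) of the 9 genes was 823 ± 127 in DMSO (SD, n = 3) and 1016 ± 111 with Nutlin, the highest of the groups, while PF-06873600 had the lowest, 710 ± 70.1. Neither sum was separated from DMSO by the exact permutation test (two-sided, p = 0.2 for Nutlin and 0.3 for PF-06873600, where 3 against 3 libraries cannot go below 0.1). Paired by library number, the sum was lower in 3 of 3 pairs with PF-06873600 and with docetaxel. It was higher in 3 of 3 with Nutlin and with etoposide. The exact sign-flip test gave p = 0.25 in each, the smallest that 3 pairs allow. For docetaxel and Nutlin against DMSO the numbers were not taken as paired. The TPM sums carry no TMM factors. In TMM-scaled CPM the 9 genes summed to 685, 579 and 541 in etoposide libraries 1 to 3. The DMSO libraries summed to 781, 570 and 657 CPM, so the etoposide direction depends on the measure.

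Zfas1, a box C/D host whose RNA was described in the mouse mammary gland, had the largest falls in the family. Its levels were 145, 126 and 127 CPM in the DMSO libraries, 84.5, 86.7 and 87.3 with PF-06873600, and 89.9, 88.5 and 58.6 with alisertib. They were 72.0, 71.5 and 73.2 CPM with docetaxel and 85.0, 77.5 and 66.6 with etoposide. Every library of these 4 treatments lay below all 3 DMSO libraries. The log2 fold change was −0.62 ± 0.16 (SE) for PF-06873600 (adjusted p = 0.00498), −0.75 ± 0.16 for alisertib (adjusted p = 0.000529), −0.88 ± 0.16 for docetaxel (adjusted p = 0.00012) and −0.80 ± 0.16 for etoposide (adjusted p = 0.000253, edgeR). The largest of these was a 1.83-fold lower level with docetaxel. The share of all tested genes whose libraries lie apart likewise is not given. Libraries said to lie apart, here and below, are therefore a description of those libraries alone.

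With Nutlin, Zfas1 stood at 163, 194 and 214 CPM, above all DMSO libraries, and rose by 0.52 ± 0.16 (adjusted p = 0.0246, edgeR). That call was lost without DMSO library 2 (0.49, adjusted p = 0.085), without DMSO library 3 (0.50, adjusted p = 0.0691), without Nutlin library 3 (0.43, adjusted p = 0.117) and without all libraries numbered 2 (0.46, adjusted p = 0.108, edgeR). With palbociclib the libraries were at 145, 145 and 125 CPM, a log2 difference of 0.06 with a 95% interval of −0.28 to 0.41. With T/P they were at 92.4, 169 and 154 CPM, so that library 1 lay below every DMSO library and the other two above them. The log2 difference for T/P was 0.07, and without T/P library 2 or 3 it was −0.12 or −0.04.

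Gas5, a box C/D host with a pyrimidine run at the downstream of its 2 annotated starts, followed Zfas1 in part. Its levels were 298, 192 and 247 CPM in DMSO, 183, 127 and 185 with PF-06873600, 197, 155 and 158 with alisertib, and 180, 148 and 196 with docetaxel. The PF-06873600 libraries lay below all DMSO libraries, whereas alisertib and docetaxel each had 1 library above the lowest DMSO library. Gas5 fell by 0.57 ± 0.16 on the log2 scale with PF-06873600 (adjusted p = 0.00728), by 0.53 ± 0.16 with alisertib (adjusted p = 0.00703) and by 0.49 ± 0.16 with docetaxel (adjusted p = 0.0132, edgeR). The calls for alisertib and docetaxel were lost without DMSO library 1, the highest of the controls (−0.37, adjusted p = 0.0658, and −0.35, adjusted p = 0.082), and that for docetaxel also without docetaxel library 2 (−0.39, adjusted p = 0.0682, edgeR).

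With etoposide Gas5 was at 229, 180 and 181 CPM, which overlaps DMSO, and the log2 difference of −0.32 ± 0.16 missed the threshold (adjusted p = 0.0918, edgeR). With the library number as a block it was −0.31 with an adjusted p of 0.0121, and without the libraries numbered 2 it was −0.41 with an adjusted p of 0.00556 (edgeR). Without DMSO library 2 the adjusted p was 0.0155 (−0.48), and without etoposide library 1 it was 0.0373 (−0.45, edgeR). With Nutlin the levels were 342, 237 and 323 CPM and the log2 difference 0.29 ± 0.16 (adjusted p = 0.22, edgeR). Palbociclib (265, 257 and 257 CPM) and T/P (246, 253 and 271 CPM) lay within the range of the DMSO libraries, with log2 differences of 0.08 and 0.06.

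Snhg18, host of Snord123, is the least counted of the 9 genes and had narrow groups. It stood at 14.3, 15.3 and 13.7 CPM in DMSO, and at 9.41, 9.52 and 7.60 with alisertib. Docetaxel gave 9.66, 11.4 and 9.43 CPM and etoposide 9.99, 10.7 and 7.61. None of these 9 libraries reached the lowest DMSO library. Snhg18 fell by 0.71 ± 0.13 with alisertib (adjusted p = 7.35e-05), by 0.51 ± 0.13 with docetaxel (adjusted p = 0.00194) and by 0.61 ± 0.13 with etoposide (adjusted p = 0.000295, edgeR). With PF-06873600 it was at 12.5 to 13.9 CPM and with palbociclib at 12.3 to 14.1 CPM, log2 differences of −0.14 in each, and T/P and Nutlin overlapped DMSO too.

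Snhg5, host of Snord50a and Snord50b, moved the other way. Its levels were 28.7, 23.0 and 24.7 CPM in DMSO, 38.5, 30.2 and 34.7 with alisertib, 44.5, 39.0 and 39.9 with etoposide, and 35.6, 32.6 and 32.9 with palbociclib. All 9 of these treated libraries lay above the highest DMSO library. Snhg5 rose by 0.44 ± 0.13 with alisertib (adjusted p = 0.00756), 0.69 ± 0.13 with etoposide (adjusted p = 0.000103) and 0.41 ± 0.13 with palbociclib (adjusted p = 0.0196, edgeR). The palbociclib call was lost without DMSO library 2 (0.31, adjusted p = 0.127), DMSO library 3 (0.36, adjusted p = 0.0762) or palbociclib library 1 (0.33, adjusted p = 0.0953, edgeR).

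With Nutlin Snhg5 was at 39.9, 28.2 and 35.1 CPM, which overlaps DMSO, and rose by 0.43 ± 0.13 (adjusted p = 0.0238, edgeR). This call was lost without DMSO library 2 or 3 or Nutlin library 1 or 3, where the log2 difference was 0.33 to 0.42 and the adjusted p 0.0648 to 0.141 (edgeR). With PF-06873600, T/P and docetaxel the log2 differences were 0.18, 0.19 and 0.27, short of the threshold (adjusted p = 0.326, 0.315 and 0.0945, edgeR). Docetaxel library 2, at 23.6 CPM, lay among the controls and the other two at 31.7 and 36.6 above them. Without docetaxel library 2 the log2 difference was 0.42 (adjusted p = 0.00772), and without all libraries numbered 2 it was 0.33 (adjusted p = 0.015, edgeR).

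**Figure D3:**
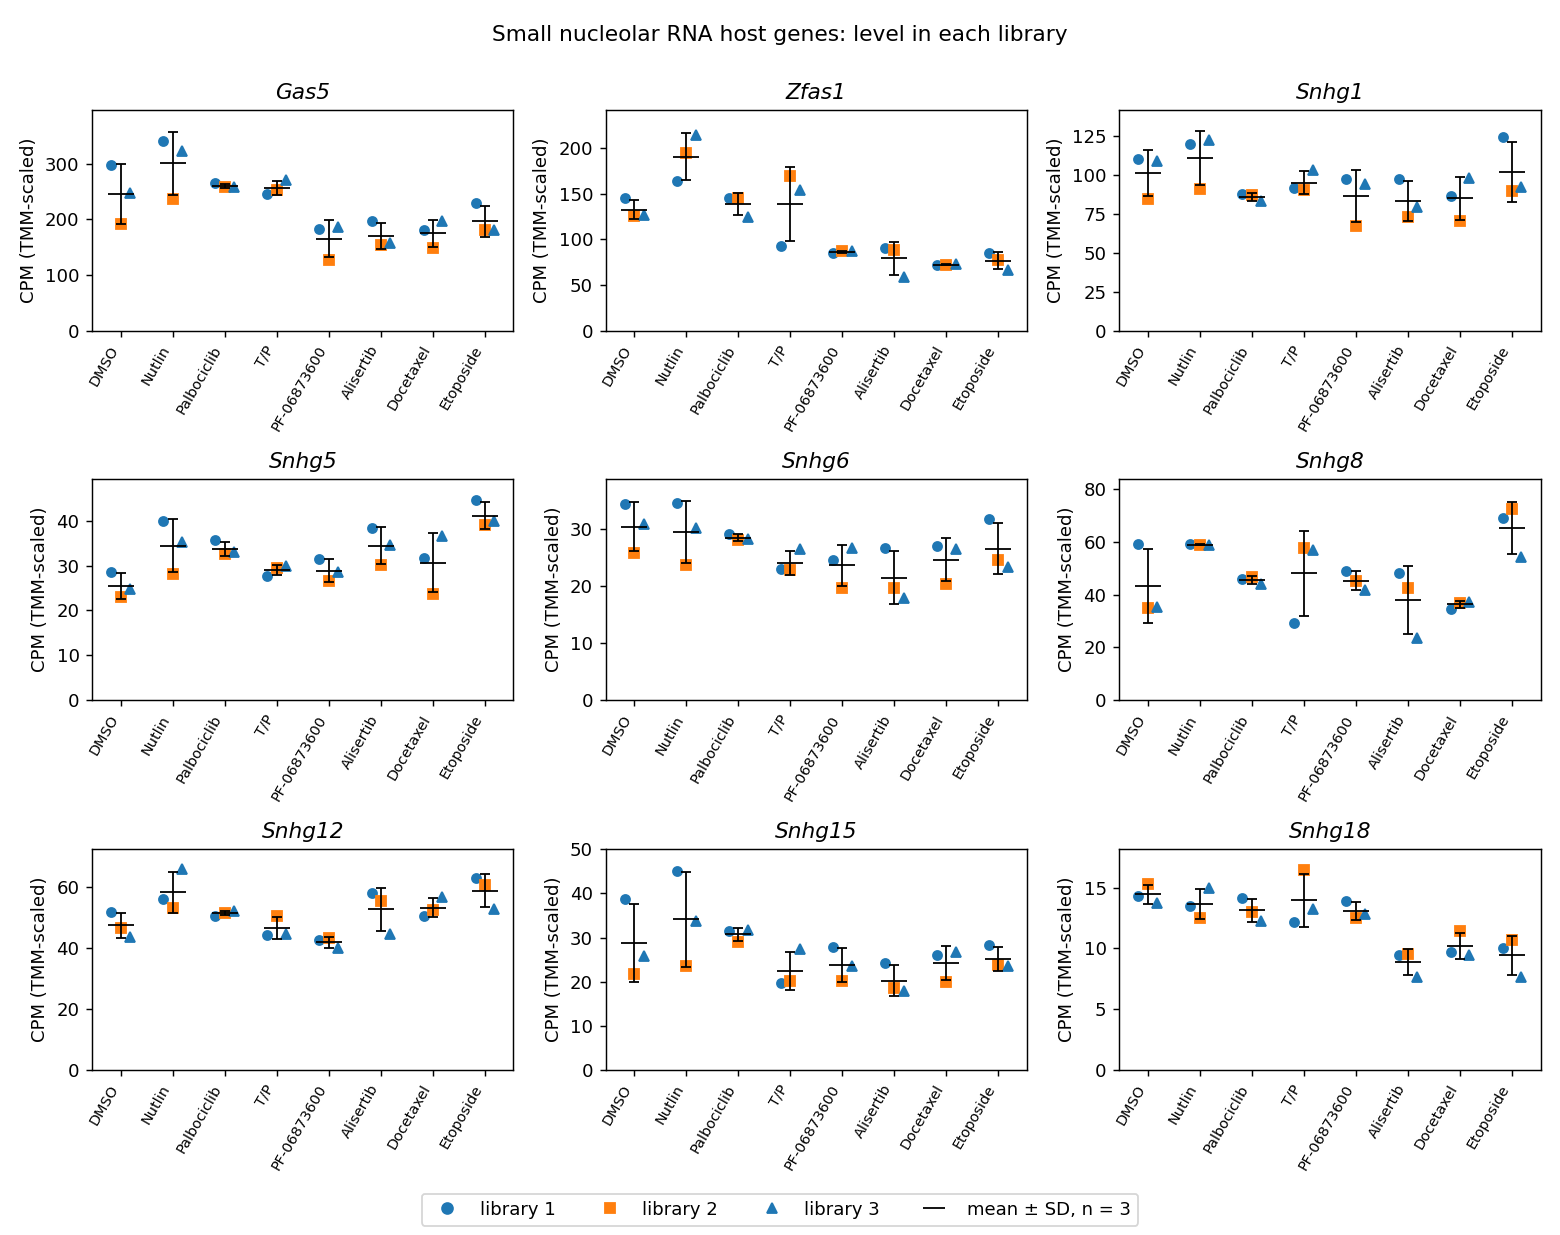
CPM, scaled by TMM factors, of each host gene in every library, 1 panel per gene with its own y axis from 0 and the 8 groups on the x axis. Points are libraries (orange for those numbered 2), bars the mean and SD of 3. Zfas1 is at or below 89.9 CPM in all 12 libraries of PF-06873600, alisertib, docetaxel and etoposide.

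The box H/ACA hosts Snhg8 and Snhg15 and the mixed host Snhg12 differed from each other. Snhg8 was at 59.5, 35.1 and 35.4 CPM in DMSO and at 69.1, 72.7 and 54.3 with etoposide, where 2 of 3 libraries lay above every control. It rose by 0.59 ± 0.22 with etoposide (adjusted p = 0.0282, edgeR). The call was lost without DMSO library 2 or 3 or etoposide library 1 or 2, with log2 differences of 0.46 to 0.55 and adjusted p of 0.0752 to 0.128, and without all libraries numbered 2 (0.38, adjusted p = 0.253, edgeR). In the other treatments Snhg8 overlapped DMSO, from 23.4 CPM in alisertib library 3 to 59.3 CPM in Nutlin library 1. Without DMSO library 1, its highest control, Snhg8 passed with Nutlin (0.75, adjusted p = 0.025, edgeR).

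Snhg12, which carries Snora16a, Snora44, Snora61 and Snord99, stood at 51.8, 46.5 and 43.5 CPM in DMSO, 62.9, 60.6 and 52.5 with etoposide, and 55.9, 52.8 and 65.8 with Nutlin. Both treatments lay above all controls. It rose by 0.31 ± 0.10 with etoposide (adjusted p = 0.00864) and by 0.30 ± 0.10 with Nutlin (adjusted p = 0.0316, edgeR). The etoposide call was lost without DMSO library 3 (0.25, adjusted p = 0.0511), etoposide library 1 (0.26, adjusted p = 0.0514) or the libraries numbered 2 (0.28, adjusted p = 0.0661). The Nutlin call was lost without DMSO library 2 or 3 or Nutlin library 3, where the log2 difference was 0.20 to 0.29, and without the libraries numbered 2 (0.34, adjusted p = 0.0616, edgeR). The alisertib difference passed without alisertib library 3 (0.26, adjusted p = 0.0314, edgeR).

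Snhg15, host of Snora9, was at 38.7, 21.8 and 25.8 CPM in DMSO and 24.2, 18.6 and 17.9 with alisertib, and the groups overlapped. It fell by 0.51 ± 0.21 with alisertib (adjusted p = 0.042, edgeR). Without DMSO library 1 the log2 difference was −0.23 (adjusted p = 0.354), and the call was also lost without alisertib library 2 or 3 (−0.45 and −0.43, edgeR). Snhg6, host of Snord87, was at 34.4, 25.9 and 31.0 CPM in DMSO and 26.7, 19.7 and 18 with alisertib, again with overlap. It fell by 0.50 ± 0.16 (adjusted p = 0.00983), a call lost without DMSO library 1 (−0.41, adjusted p = 0.0529) or alisertib library 3 (−0.39, adjusted p = 0.0627, edgeR).

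With PF-06873600 Snhg6 was at 24.6, 19.7 and 26.6 CPM, a log2 difference of −0.36 ± 0.16 that missed the threshold (adjusted p = 0.0835). It passed with the library number as a block (−0.36, adjusted p = 0.0109) and without DMSO library 2 (−0.51, adjusted p = 0.0245, edgeR). Snhg6 lay between 22.8 and 26.5 CPM with T/P, a log2 difference of −0.34 (adjusted p = 0.117). Without DMSO library 2 this was −0.46 (adjusted p = 0.0441), and the docetaxel difference passed too (−0.43, adjusted p = 0.0385, edgeR).

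Snhg1, the host of Snord22 and 7 further snoRNAs, had 0 calls in 7 comparisons with DMSO by edgeR or DESeq2, and 0 at an unadjusted p under 0.05. Its log2 differences ran from −0.28 with alisertib to 0.13 with Nutlin. The controls spanned 84.5 to 111 CPM and every treatment overlapped them. In the alisertib comparison the block for the library number gave −0.28 with an adjusted p of 0.0175 (edgeR). That comparison also passed without DMSO library 2 (−0.40, adjusted p = 0.0435), alisertib library 1 (−0.41, adjusted p = 0.0449) or the libraries numbered 2 (−0.32, adjusted p = 0.0281), as did palbociclib without the libraries numbered 2 (−0.38, adjusted p = 0.0198, edgeR).

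Levels between the genes were set side by side in TPM, which is per length. In DMSO the order was Zfas1 (195 ± 13.8 TPM, SD, n = 3), Gas5 (183 ± 39.5), Snhg8 (142 ± 42.9), Snhg1 (95.9 ± 15.7), Snhg6 (74.4 ± 11), Snhg12 (55.1 ± 3.54), Snhg15 (30.3 ± 8.90), Snhg18 (27.2 ± 0.895) and Snhg5 (19.6 ± 2.14). Zfas1 and Gas5 overlapped, as did Gas5 and Snhg8, Snhg1 and Snhg6, and Snhg15 and Snhg18. The deposited TPM of Zfas1, Snhg5 and Snhg15 imply lengths of 1901, 3634 and 2652 bp, against 2929, 1730 and 1359 bp of merged exons in GENCODE vM21, so their places depend on the gene model. For the other 6 genes both lengths were equal.

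The make-up of the family shifted most with etoposide. Zfas1 gave 23.9% ± 2.04 of the summed TPM of the 9 genes in DMSO and 14.4% ± 0.221 with etoposide (SD, n = 3 each). Snhg8 gave 17.0% ± 2.79 in DMSO and 27.5% ± 2.74 with etoposide. The groups did not overlap in either case, and the exact permutation test gave 0.1, the smallest p that 3 against 3 libraries can give (two-sided). That p is not particular to etoposide. The Zfas1 share reached it too with PF-06873600, alisertib and docetaxel, at 19.4%, 18.6% and 17.0%, as did shares of other genes. Snhg5 remained a small part, at 2.40% ± 0.110 in DMSO and 4.32% ± 0.795 with alisertib, where it was highest.

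Drugs were then compared with each other. PF-06873600 at 500 nM and palbociclib at 1 µM, whose doses differ, gave 3 of the 9 genes lower with PF-06873600, where 11.7% of all genes were lower and 26.1% called in edgeR. Zfas1 was at 86.1 ± 1.49 CPM with PF-06873600 and 139 ± 11.8 CPM with palbociclib (SD, n = 3), and fell by 0.69 ± 0.16 (adjusted p = 0.00358). Gas5 was at 165 ± 33.2 and 260 ± 4.33 CPM, a fall of 0.65 ± 0.16 (adjusted p = 0.00409, edgeR). In both genes every PF-06873600 library lay below every palbociclib library. Snhg12 was lower by 0.29 ± 0.10 (log2 fold change −0.29, adjusted p = 0.0286), at 41.8 ± 1.83 against 51.3 ± 0.734 CPM. That call was lost without PF-06873600 library 3, palbociclib library 2 or 3, or the libraries numbered 2 (adjusted p = 0.102, 0.0558, 0.0778 and 0.0716, edgeR).

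T/P and palbociclib shared 1 µM palbociclib, and edgeR, DESeq2 and limma each called 0 of the 9 genes between them, with 1 at an unadjusted p under 0.05 and 4.10% of all genes called. That gene was Snhg15, at 22.5 ± 4.34 CPM with T/P and 30.7 ± 1.51 with palbociclib (log2 difference −0.45, adjusted p = 0.207, edgeR). For Zfas1 the 95% interval of the log2 difference was −0.34 to 0.34, which does not show that the treatments act alike. Docetaxel and alisertib, both drugs of the mitotic spindle, also had 0 of the 9 genes called by edgeR, DESeq2 or limma and 0 at an unadjusted p under 0.05, with 17.4% of all genes called.

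Between etoposide and alisertib 1 of the 9 genes was called and higher, where 6.90% of all genes were higher and 14.7% called. Snhg8 was at 65.4 ± 9.74 CPM with etoposide and 38.0 ± 13 with alisertib, a rise of 0.78 ± 0.22 (adjusted p = 0.0208, edgeR). Without alisertib library 3 it was 0.53 (adjusted p = 0.148), and the call was also lost without etoposide library 1 or 2 or the libraries numbered 2 (adjusted p = 0.0684, 0.0808 and 0.0792, edgeR). Without alisertib library 1 Snhg6 passed (0.50, adjusted p = 0.0433, edgeR). With the library number as a block 4 of the 9 genes were called, since Snhg1 (0.29, adjusted p = 0.0337), Snhg5 (0.26, adjusted p = 0.0434) and Snhg6 (0.31, adjusted p = 0.0439, edgeR) passed too.

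Across the 8 group means of log2 CPM, Gas5 and Zfas1 had a Pearson r of 0.94, Snhg6 and Snhg15 of 0.91 and Snhg5 and Snhg12 of 0.76. Gas5 was most like the mean of the other 8 genes (r = 0.89), and Snhg5 least (r = 0.00). Among the 8869 genes that averaged 10 CPM or more, those most like the mean of the 9 were Epb41l4aos (r = 0.97), Srp9 (0.96), Evpl, Cbr2 and Bcl7a (0.95 each). These are descriptions over 8 points that share the DMSO group and the scaling. Epb41l4aos, itself annotated as a noncoding snoRNA host, stood at 29.8 ± 8.34 CPM in DMSO and fell by 0.83 with alisertib (adjusted p = 0.00191) and by 0.66 with docetaxel (adjusted p = 0.0104, edgeR).

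Of 15 further noncoding hosts listed, 9 were tested. Besides Epb41l4aos, Snhg10 rose with docetaxel (1.35, adjusted p = 0.00879), etoposide (1.43, adjusted p = 0.00531) and palbociclib (1.09, adjusted p = 0.0461), from 0.716 CPM in DMSO. Snhg20 rose with palbociclib from 13.4 to 29.1 CPM (1.12, adjusted p = 0.00931). Snhg3 was lower with T/P (−1.73, adjusted p = 0.0425) and etoposide (−2.14, adjusted p = 0.00826, edgeR), at under 1 CPM in each group. Snhg17, the most abundant of them, was at 53.3 CPM in DMSO and was not called in any comparison with DMSO.

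Genes of the translation machinery fell in numbers in each treatment but Nutlin, and their medians kept that direction under both other scalings. Of 79 ribosomal protein genes, 74 fell with alisertib (median log2 fold change −0.74), 62 with docetaxel, where 1 rose (−0.57), 61 with etoposide (−0.67), 58 with palbociclib (−0.47), 49 with PF-06873600 (−0.38), 31 with T/P (−0.32) and 1 with Nutlin (−0.03). Of 16 translation factors whose messages carry a terminal oligopyrimidine tract, 15, 14, 16, 14, 12, 10 and 1 fell in the same order of treatments. Of all tested genes 26.1% fell with alisertib, 22.5% with docetaxel, 26.9% with etoposide, 17.4% with palbociclib and 14.1% with PF-06873600. With T/P 2265 of the 15527 tested genes fell, and with Nutlin 1766. Eef1a1, the main elongation factor, went from 21993 CPM in DMSO to 9644 CPM with etoposide. With palbociclib the 9 host genes had 1 called rise and 0 called falls, where 17.4% of all genes fell, and the difference between the lists was not tested.

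**Figure D4:**
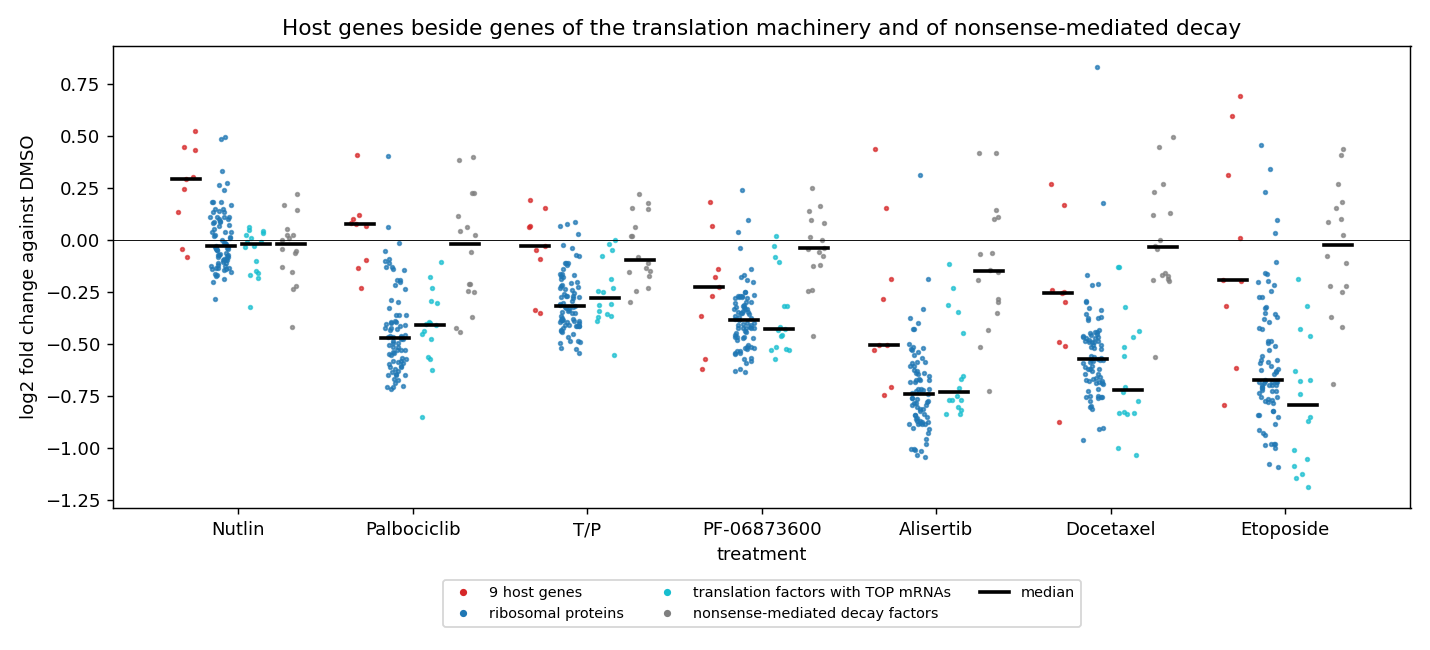
Log2 fold change against DMSO of the 9 host genes (red), 79 ribosomal protein genes (blue), 16 translation factors (cyan) and 16 nonsense-mediated decay factors (grey) in the 7 treatments, with a black bar at each median. With palbociclib the medians are 0.08 for the host genes and −0.47 for the ribosomal protein genes.

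Protein-coding genes that carry snoRNAs fell in most treatments, under all 3 scalings. Of 32 listed, 17 of which are also on the ribosomal protein list and 4 on that of translation factors, 24 fell with alisertib and with docetaxel, 23 with etoposide, 22 with palbociclib, 19 with PF-06873600, 12 with T/P and 3 with Nutlin, and 3 rose with etoposide and 1 each with docetaxel and PF-06873600. The shares of all genes that fell are those given with the ribosomal protein genes. The abundant host Tpt1 was at 6066 CPM in DMSO and fell with alisertib (−0.31, adjusted p = 0.0229) and etoposide (−0.46, adjusted p = 0.00143, edgeR). Of 19 tested proteins of the snoRNA particles, 10 fell and 2 rose with alisertib, 10 fell and 1 rose with palbociclib, and 6 rose and 5 fell with etoposide. In these treatments 53.9%, 35.9% and 54.6% of all genes were called. With library totals the particle proteins had 4 falls and 6 rises with alisertib and 10 rises and 1 fall with etoposide. In that scaling 71.8% and 71.6% of all calls were rises with alisertib and etoposide. Of 16 factors of nonsense-mediated decay, 6 fell and 2 rose with alisertib, 5 fell and 3 rose with etoposide, and 4 rose and 2 fell with docetaxel, beside 53.9%, 54.6% and 49.0% of all genes called. With library totals the counts became 2 falls and 5 rises, 2 falls and 8 rises, and 1 fall and 8 rises. Their log2 fold changes had medians between −0.15 and −0.02 over the 7 treatments, which with library totals lay above 0 in all but T/P and Nutlin (0.045 with alisertib, 0.18 with etoposide).

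Genes read from the opposite strand beside a host had calls of their own. Znfx1, a helicase-domain protein that starts 81 bp from Zfas1 and shares 82 bp of exon with it, stood at 38.6 ± 2.64 CPM in DMSO and rose in 6 of 7 treatments, by 0.38 with PF-06873600 to 0.72 with palbociclib (adjusted p = 0.000452 and 1.37e-07, edgeR). With docetaxel it rose by 0.62 (adjusted p = 6.09e-07, edgeR) while Zfas1 fell. With Nutlin its log2 difference was 0.13 (adjusted p = 0.288, edgeR). Sema5a starts 148 bp from Snhg18. It rose with palbociclib (0.89, adjusted p = 3.72e-06), T/P (0.76, adjusted p = 2.79e-05) and Nutlin (0.67, adjusted p = 0.000229, edgeR). With alisertib, where Snhg18 fell, Sema5a rose by 0.33 (adjusted p = 0.0231, edgeR), with libraries that overlapped DMSO. With docetaxel and etoposide, where Snhg18 fell too, Sema5a was not called (0.14 and −0.16). Zbtb37, beside Gas5, rose with palbociclib from 9.21 to 15.7 CPM (0.77, adjusted p = 0.000964, edgeR), where Gas5 was not called. Slc3a2, which starts 106 bp from Snhg1, rose with T/P (0.21, adjusted p = 0.0326) and etoposide (0.20, adjusted p = 0.0233) and fell with docetaxel (−0.20, adjusted p = 0.031, edgeR), none of them a treatment in which Snhg1 was called. The strand setting of the counting is not given in the sources used here, so reads in the exons shared by Zfas1 and Znfx1 cannot be assigned to 1 strand. Snhg6 shares 127 bp of exon with Mcmdc2, which had 67 counts over all libraries and was not tested.

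Of the 32 snoRNA genes inside the 9 hosts, 3 had any count. Gm23201 in Zfas1 had 1002 counts over the 24 libraries, Snord87 in Snhg6 had 91 and Snord123 in Snhg18 had 65, beside 71456 counts for Zfas1 itself. The annotation places 30 of the 32 over host exons of some transcript, and how such reads were assigned is not given in the sources used here. A count of 0 therefore does not measure the snoRNA. Gm23201 lies over a Zfas1 exon, so its counts cannot be told apart from reads of its host. Gm23201 was the snoRNA that passed the filter. It stood at 0.415 CPM in DMSO and at 3.54 CPM with palbociclib (log2 fold change 3.11 ± 0.64, adjusted p = 0.000543), 1.82 with docetaxel (2.17, adjusted p = 0.0075), 1.63 with alisertib (2.0, adjusted p = 0.0131) and 1.52 with etoposide (1.90, adjusted p = 0.0178, edgeR). In the last 3 of these treatments its host Zfas1 fell. The alisertib and etoposide libraries of Gm23201 overlapped those of DMSO, where its SD was 0.473 CPM. With PF-06873600, T/P and Nutlin Gm23201 was not called (0.90, 1.39 and 1.32).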

How the data were processed

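The submitters' processing notes name fastp, STAR, featureCounts and DESeq2 and the build mm10, without versions. Strand and multimapping settings are not given in the sources used here. The deposited counts are raw counts per gene. The deposited TPM values, per the file headers, are scaled by length and library size. T/P was read as trametinib with palbociclib from the treatment protocol.

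Counts were tested in R 4.3.3 with edgeR 4.0.16. The quasi-likelihood fit took 1 mean for each group over all 24 libraries, with TMM factors and 16 residual degrees of freedom, after filterByExpr (minimum count 10, minimum total 15), which left 15527 genes with 99.9% of the counts. Tests were two-sided, adjusted by Benjamini-Hochberg over all genes tested, with a threshold of 0.05. The SE is the log2 fold change divided by the square root of F, and 95% intervals use a t distribution with 16 degrees of freedom. CPM uses TMM-scaled library sizes, and correlations use log2 CPM with a prior count of 2. The script was tested on simulated data. The p-values measure only the spread between these libraries, which may be technical. Within groups no pair of libraries agreed within sampling noise (chi-square per degree of freedom 2.82 to 50.2).

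Gene positions are from GENCODE vM21 on GRCm38, in which 54435 of 55487 gene IDs match with version. Zfas1, Snhg5 and Snhg15 match without version. The members and lists were chosen with earlier results of these data known. Named are all 9 genes, tested further hosts, up to 2 abundant genes of each list, overlapping or neighbouring genes and the 5 genes of the most similar pattern.

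The labels number libraries 1 to 3 and do not say that numbers pair them. Deviations from the group means of same-numbered libraries correlated above 0.1 in every pair for PF-06873600, alisertib and etoposide against DMSO, docetaxel against alisertib and etoposide against alisertib (r 0.117 to 0.508), which were taken as paired. The main fit does not use this pairing, which enters only through the block for the number. Alternatives were a block for the number, RLE factors, library totals, DESeq2 1.42.0, limma 3.58.1 on log2(TPM + 1), other filters, fits of only the 2 groups and leaving out libraries.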

Additional observations from a re-analysis of the deposited data

How the results depend on the processing

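Of 24 called results on the host genes, 11 kept their call under all 15 alternatives each had, and 0 changed direction. The 11 are the falls of Zfas1 with PF-06873600, alisertib, docetaxel and etoposide, of Snhg18 with alisertib, docetaxel and etoposide, of Gas5 and Zfas1 with PF-06873600 against palbociclib, and the rises of Snhg5 with alisertib and etoposide. Calls lost without a library are named beside each result. Calls also lost elsewhere were Gas5 with PF-06873600 under limma on TPM (−0.46, adjusted p = 0.0737), and under library totals and limma Gas5 with alisertib and docetaxel, Snhg6 and Snhg15 with alisertib and Snhg5 with Nutlin. Snhg15 with alisertib was lost under RLE factors (−0.48, adjusted p = 0.0519) and the filter at 1 CPM (−0.47, adjusted p = 0.0599), and Snhg5 and Snhg12 with Nutlin in fits of only the 2 groups (0.42 and 0.29, adjusted p = 0.0815 and 0.106, edgeR). The cause was not tested. Scaling by library totals shifted the median of all genes by 0.20 with alisertib, 0.21 with docetaxel, 0.21 with etoposide and 0.09 with PF-06873600 and with palbociclib on the log2 scale, and the share of calls that were rises went from 51.5% to 71.8%, 54.2% to 78.4%, 50.7% to 71.6%, 56.0% to 72.0% and 51.5% to 65.6% in the same order, and from 47.1% to 58.1% for etoposide against alisertib.

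Without the low-count filter the host genes called were 5 with PF-06873600, 7 with docetaxel, 2 with T/P, 5 with Nutlin, 2 with palbociclib, 1 for T/P against palbociclib and 3 for etoposide against alisertib, beside 29.2%, 46.5%, 26.9%, 17.6%, 33.3%, 7.52% and 14.2% of the 15527 genes that pass the filter, and 1181 of all genes were called for T/P against palbociclib, where 637 were called in the fit reported. Fits of only the 2 groups called 1 host gene with Nutlin, 1 for T/P against palbociclib and 6 for PF-06873600 against palbociclib, and 1699, 1165 and 1203 of all genes with Nutlin (3011 as reported), for T/P against palbociclib and for etoposide against alisertib (2275). DESeq2 called 1142 genes for T/P against palbociclib. Limma on TPM called 1 host gene with PF-06873600 and 2 with palbociclib, and 317 of all genes for T/P against palbociclib. Without the libraries numbered 2, the host genes called were 1 with Nutlin, 2 with palbociclib and 0 for etoposide against alisertib, and 411 and 1253 of all genes for T/P against palbociclib and etoposide against alisertib. A host gene count without a count or share of all genes from the same fit is not read as a result.

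With the replicate block, host genes called were 6 with docetaxel, 1 with T/P, 1 for T/P against palbociclib and 4 for etoposide against alisertib, and 2504 and 3630 of all genes in the last 2. For docetaxel and T/P against DMSO no share of all genes in that fit is given, so their counts are not read as a result. In the comparisons whose numbers were taken as paired, the block changed no other call than those named in the report. In the others it added Snhg1 (−0.25, adjusted p = 0.0335), Snhg5 (0.26, adjusted p = 0.0223) and Snhg6 (−0.30, adjusted p = 0.0201, edgeR) with docetaxel, Snhg6 with T/P (−0.33), Gas5 with Nutlin (0.29) and Snhg15 with T/P (−0.45) and PF-06873600 (−0.38) against palbociclib.

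Leaving out each library in turn, the host genes called ranged from 2 to 3 with PF-06873600, 3 to 7 with alisertib, 2 to 4 with docetaxel, 0 to 1 with T/P, 3 to 5 with etoposide, 0 to 4 with Nutlin, 0 to 1 with palbociclib, 2 to 3 for PF-06873600 against palbociclib and 0 to 2 for etoposide against alisertib. All genes called ranged from 4164 to 4485 with PF-06873600, 7577 to 8046 with alisertib, 6663 to 7464 with docetaxel, 3898 to 4095 with T/P, 7895 to 8209 with etoposide, 4402 to 5217 with palbociclib, 2002 to 3459 with Nutlin, 1140 to 2395 for etoposide against alisertib, 154 to 480 for T/P against palbociclib, 2730 to 3236 for PF-06873600 against palbociclib and 1804 to 2444 for docetaxel against alisertib. Uncalled differences near 0 changed sign. Without the libraries numbered 2, Gas5 was at −0.081 with T/P and −0.079 with palbociclib, and Zfas1 at −0.14 and −0.025. Leaving out 1 library, Gas5 with palbociclib ranged from −0.10 to 0.22 and Zfas1 with palbociclib from −0.0046 to 0.13. Without DMSO library 2, Gas5 was at −0.11 with T/P and −0.10 with palbociclib and Zfas1 at −0.0046 with palbociclib. Without palbociclib library 1 or 2, Zfas1 was at −0.0022 or −0.0013 with palbociclib. Without T/P library 2 or 3, it was at −0.12 or −0.04 with T/P. The spread of the 3 libraries was larger than the counting error in 66 of 72 pairs of a host gene and a group (medians 12.8% and 3.01%), and not in Zfas1 with PF-06873600 and docetaxel, Snhg6 and Snhg12 with palbociclib, Snhg8 with Nutlin and Snhg18 in DMSO.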
